A study of Mus musculus with 3008 samples.

Results

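The genes of lymphoid recirculation described here were followed across regulatory T cells of the colon and the spleen: the receptor genes Ccr7, S1pr1, S1pr4 and Gpr183, and the Krüppel-like factor genes Klf2, Klf3, Klf6 and Klf13, 8 genes in all. They were taken by name from a list, and all 8 were among the 23725 genes of the deposited UMI table. A UMI, or unique molecular identifier, is a tag that marks 1 captured transcript, so that amplified copies are counted once. The cells were FoxP3+ regulatory CD4+ T cells (Tregs), which restrain immune responses, from male 7-month-old mice of the strain B6 Foxp3-Ires-Gfp, in which green fluorescent protein reports the Treg factor Foxp3. They were sorted as live (DAPI-) TCRb+ CD4+ GFP+ cells and captured singly in droplets by the inDrops method. Tregs of the colon lamina propria made up 2 libraries, called colon 1 and colon 2 here, with 20.6% and 58.9% of the 3008 cells, and splenic Tregs made up 1 library, with 20.5%. Colon tissue was digested with collagenase and dispase, whereas spleens were dissociated mechanically, so tissue and dissociation cannot be told apart in this design. The labels name no animal, so each tissue counts as 1 sample and no p-value is given. Every interval below covers counting error only and not the spread between mice. Intervals of summed UMIs and of their ratios also leave out the spread between cells. They are too narrow where few cells hold most UMIs: for S1pr1, 5% of colon 1 cells held 94.7% of them.

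T cells enter lymph nodes with the help of CCR7, the receptor of the chemokines CCL19 and CCL21, and leave them along a gradient of sphingosine 1-phosphate (S1P) that is sensed by S1PR1. KLF2, a zinc-finger transcription factor, drives the S1pr1 gene in T cells, and loss of KLF2 and S1PR1 accompanies tissue residence. GPR183 (EBI2) senses oxysterols and guides lymphocytes to the edges of follicles and to lymphoid structures of the gut. KLF proteins bind CACCC boxes and GC-rich DNA, and differ in their other domains and in the cells that use them.

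The genes separated into 3 groups by direction, and the promoters of 4 of them are printed because they mark the opposed sides: Klf2 and Klf3 were lower in colon, and Gpr183 and Klf6 were higher. Each is the stretch from 250 bases before to 50 after the gene start that RefSeq gives (build GRCm38.p6), in the direction of the gene, with CACCC or its reverse complement GGGTG in capitals. They lie at chr8:72318812-72319111 (plus strand), chr5:64803271-64803570 (plus strand), chr14:121965144-121965443 (minus strand) and chr13:5861239-5861538 (plus strand). The gene spans given below for Klf2 and Klf3 begin further upstream, at 72319033 and 64803388. Some matches before the RefSeq start therefore lie within those spans.
Klf2: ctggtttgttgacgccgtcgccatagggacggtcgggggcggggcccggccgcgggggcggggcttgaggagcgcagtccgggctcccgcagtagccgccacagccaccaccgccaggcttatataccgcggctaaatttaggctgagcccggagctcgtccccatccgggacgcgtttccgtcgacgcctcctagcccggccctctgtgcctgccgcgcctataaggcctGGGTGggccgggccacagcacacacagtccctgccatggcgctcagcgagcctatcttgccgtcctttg
Klf3: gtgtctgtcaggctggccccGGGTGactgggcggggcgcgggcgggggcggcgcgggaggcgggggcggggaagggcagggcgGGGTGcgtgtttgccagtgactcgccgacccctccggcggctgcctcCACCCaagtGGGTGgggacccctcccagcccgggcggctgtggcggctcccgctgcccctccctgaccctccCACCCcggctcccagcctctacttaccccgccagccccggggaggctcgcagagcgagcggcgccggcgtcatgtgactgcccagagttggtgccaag
Gpr183: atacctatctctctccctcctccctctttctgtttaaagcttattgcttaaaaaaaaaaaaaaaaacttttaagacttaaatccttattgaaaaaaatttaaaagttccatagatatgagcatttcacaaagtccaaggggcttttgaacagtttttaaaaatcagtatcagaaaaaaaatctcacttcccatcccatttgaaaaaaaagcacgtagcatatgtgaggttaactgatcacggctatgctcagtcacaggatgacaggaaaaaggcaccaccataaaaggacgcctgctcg
Klf6: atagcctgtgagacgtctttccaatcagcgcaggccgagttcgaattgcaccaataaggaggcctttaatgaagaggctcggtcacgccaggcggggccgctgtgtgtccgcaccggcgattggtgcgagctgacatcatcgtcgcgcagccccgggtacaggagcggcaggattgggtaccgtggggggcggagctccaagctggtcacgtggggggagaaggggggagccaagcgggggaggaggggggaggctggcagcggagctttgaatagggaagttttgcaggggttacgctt
Promoters were found for 6 of the 8 genes. The Klf3 window held 5 matches and the windows of Klf2, S1pr4 and Klf13 held 1 each, whereas Klf6 and Gpr183 held 0. Across 32851 promoters of this length, 57.5% held at least 1 such match, beside 4 of these 6 windows. GTAAACA, a core that FOXO factors bind, or its reverse complement TGTTTAC, was in 0 of the 6 windows and in 3.65% of all promoters. The Gpr183 window had a GC content of 35.3%, and those of Klf2, Klf3 and Klf6 had 69.3%, 76.7% and 63%.

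Depth per cell in UMIs was similar across libraries, with median counts of 1767 in colon 1, 2026.5 in colon 2 and 1847 in spleen. Library totals were 1253246, 3916649 and 1255946 UMIs. Sequencing was less deep in colon 2, with a median of 49.8, 20.6 and 45.8 mapped reads per UMI. The part of this in differences between the colon libraries was not tested. Sums of UMIs over the cells of a library are given per 1000000 UMIs (CPM). Ribosomal protein genes took 17.6% and 16.3% of the UMIs in the colon libraries and 28.5% in spleen. Cell barcodes shared between libraries numbered 9 between the colon libraries, 5 between colon 1 and spleen and 11 between colon 2 and spleen. Foxp3, which marks the sorted cells, had 452.4, 306.1 and 281.9 CPM in colon 1, colon 2 and spleen, and marker lists of 6 other kinds (B, plasma, myeloid, epithelial, endothelial or stromal, and CD8 or NK cells) each summed to at most 102.7 CPM in every library. Csf1r, Clec9a, Pax5, Cdh5, Kdr, Klrd1, Car1 and Phgr1, which define such cells, had 0 UMIs in all 3 libraries. Other members of those lists were present, among them Cd8b1 at 50.3, 41.6 and 63.7 CPM, Xcr1 at 45.5, 40.3 and 59.7 CPM, Epcam at 30.3, 57.2 and 42.996 CPM and Pecam1, which some T cells also express, at 53.5, 51.1 and 101.1 CPM in colon 1, colon 2 and spleen, and their part in the results was not tested.

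Relative to spleen, S1pr1, S1pr4, Klf2 and Klf3 were lower in each colon library, Ccr7, Gpr183 and Klf6 were higher in each, and Klf13 could not be told from no difference. A 2-fold rule in the same direction in both colon libraries was read over the 3482 genes with at least 50 CPM in spleen or in both colon libraries, and all 8 genes met that minimum. Gpr183 and Klf6 were at least 2-fold higher, 2 of 8 genes, where 11.7% of all these genes were. S1pr1 and Klf3 were at least 2-fold lower, 2 of 8, where 4.45% were. At 1.5-fold, 3 genes were higher (Ccr7 joining them) against 19.5% of all genes, and 3 were lower (Klf2 joining them) against 12%. With totals taken without ribosomal protein genes, the shares at 2-fold were 7.92% higher and 7.99% lower, since that scaling puts the median log2 ratio of all genes it leaves eligible at -0.24, beside 0.02 otherwise. The median log2 ratio of the 8 genes was -0.35 in colon 1 and -0.31 in colon 2, beside 0.03 and 0.05 over all these genes, and it covers members on both sides of 0. With 8 genes these shares are counts and not rates.

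**Figure D1:**
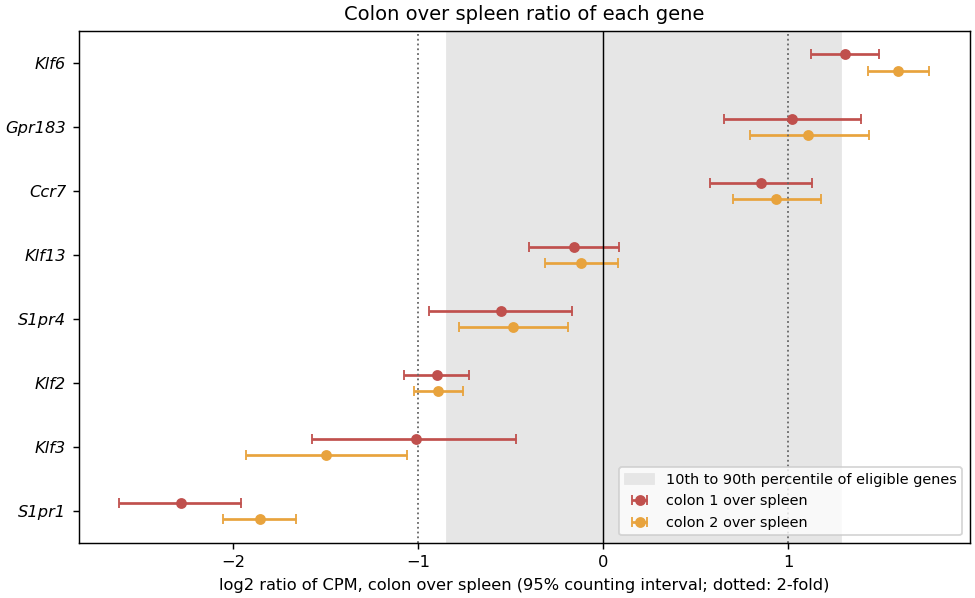
Log2 ratios of CPM, colon over spleen, for the 8 genes (points, colon 1 and colon 2; lines, 95% exact conditional binomial intervals of counting error), with the 10th to 90th percentile of all eligible genes shaded and 2-fold dotted. S1pr1 lies lowest, at -2.28 and -1.86, Klf6 lies highest, at 1.31 and 1.60, and both intervals of Klf13 include 0.

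Among the receptors, S1pr1 (minus strand of chromosome 3, 115710433 to 115715072, mm10) had the largest difference in size of the 8 genes. It stood at 75.01 CPM in colon 1 (95% Poisson interval 60.6 to 91.8), at 100.6 CPM in colon 2 (90.9 to 111.04) and at 364.7 CPM in spleen (332.03 to 399.6). Both colon levels lay far below the spleen level and none of their intervals reached it. The log2 ratio was -2.28 in colon 1 (-2.62 to -1.96) and -1.86 in colon 2 (-2.06 to -1.66), or 4.86-fold and 3.63-fold lower, placing S1pr1 at the 0.833 and 1.44 percentiles of all eligible genes. By value, colon 2 lay above colon 1 by 0.42 on the log2 scale (0.10 to 0.76). That order was not stable. With each cell thinned at random to 1000 UMIs, the log2 ratio to spleen was -1.92 in colon 1 and -2.02 in colon 2.

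S1pr4, a further S1P receptor gene of lymphocytes (minus strand of chromosome 10, 81497747 to 81500132), was lower by less. Its level was 76.6 CPM in colon 1, 79.9 CPM in colon 2 and 112.3 CPM in spleen. The log2 ratios of -0.55 (-0.94 to -0.17) and -0.49 (-0.78 to -0.19) excluded 0 but stayed under 1.5-fold, at the 18.8 and 22.9 percentiles. With totals without ribosomal protein genes S1pr4 was 1.69-fold and 1.64-fold lower, a mean log2 ratio of -0.74, past 1.5-fold. Both S1P receptor genes thus lay on the same side, with intervals of the ratios that did not overlap.

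Ccr7 (minus strand of chromosome 11, 99144196 to 99155077) left the direction of S1pr1. It had 244.2 CPM in colon 1 (217.6 to 273.1), 258.6 CPM in colon 2 (242.96 to 275.1) and 135.4 CPM in spleen (115.8 to 157.3), and both colon levels lay above the spleen level without overlap of intervals. The ratios were 1.80-fold and 1.91-fold, with log2 values of 0.85 (0.58 to 1.13) and 0.93 (0.70 to 1.18).

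Gpr183 (minus strand of chromosome 14, 121952551 to 121965195) was also higher in colon, at 151.6 CPM in colon 1, 161.4 CPM in colon 2 and 74.8 CPM in spleen. Its ratios of 2.03-fold and 2.16-fold passed the 2-fold line narrowly, and the log2 intervals ran from 0.65 to 1.39 and from 0.79 to 1.44. That call was lost with totals without ribosomal protein genes, a mean log2 ratio of 0.85. It was also lost without cells that share a barcode, where the log2 ratios of 0.97 and 1.08, with a mean of 1.03, straddled the line. Gpr183 lies within Ubac2 on the opposite strand, and whether the counting used strand is not given in the sources used here. Ubac2 itself was lower in colon, with log2 ratios of -0.89 and -0.60.

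**Figure D2:**
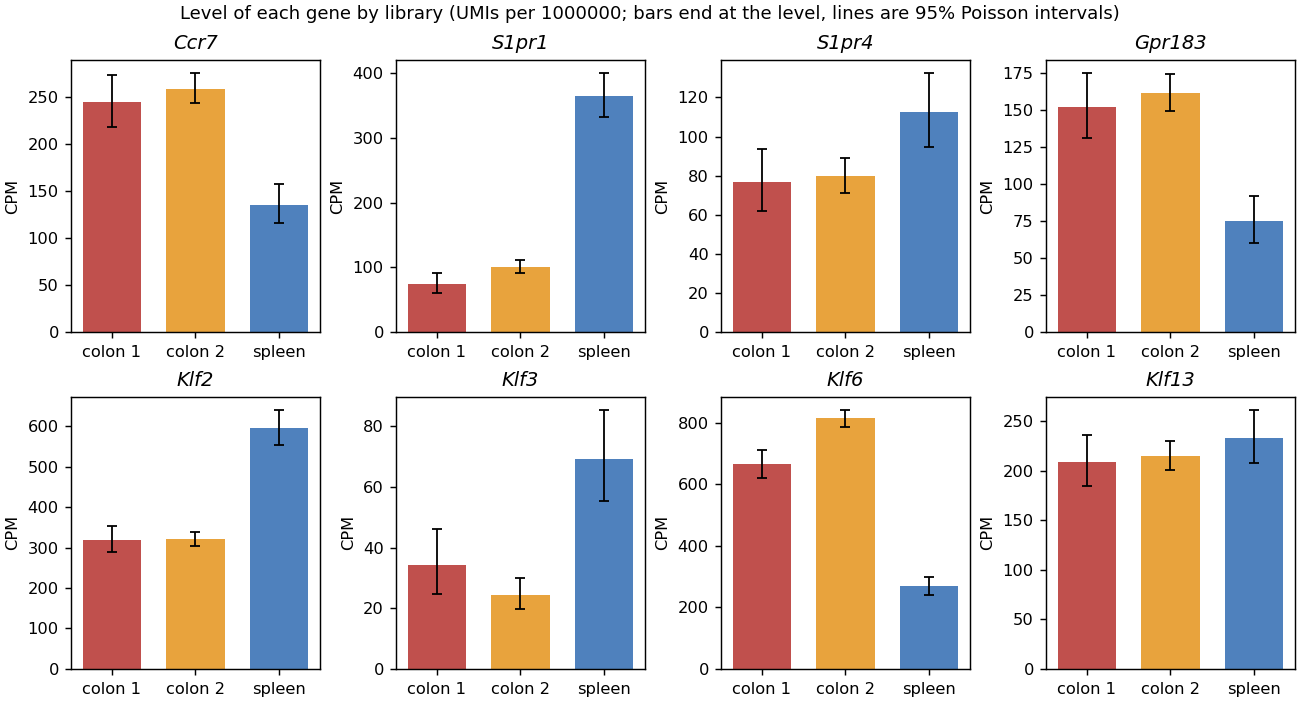
Level of each of the 8 genes in CPM (UMIs per 1000000) in colon 1, colon 2 and spleen; bars start at 0 and lines are 95% exact Poisson intervals. Each panel has its own axis: S1pr1 stood at 75.01, 100.6 and 364.7 CPM, and Klf6 at 665.5, 813.2 and 269.1 CPM.

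Of the transcription factor genes, Klf2 (plus strand of chromosome 8, 72319033 to 72321656) was lower in colon, at 319.2 CPM in colon 1 (288.7 to 352.04), 321.2 CPM in colon 2 (303.7 to 339.4) and 596.4 CPM in spleen (554.4 to 640.6). The colon libraries had nearly the same level, with a log2 difference of 0.01 (-0.15 to 0.18), and both lay below spleen. The log2 ratios were -0.90 (-1.08 to -0.72) and -0.89 (-1.02 to -0.76), smaller in size than those of S1pr1 with no overlap of intervals.

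Klf3 (plus strand of chromosome 5, 64803388 to 64832901) encodes a factor best known as a transcriptional repressor. It was the scarcest of the 8 genes by UMIs, with 43, 96 and 87 UMIs, or 34.3, 24.5 and 69.3 CPM in colon 1, colon 2 and spleen. Colon levels were again below spleen, with log2 ratios of -1.01 (-1.58 to -0.47) and -1.50 (-1.93 to -1.06). The first ratio corresponds to 2.02-fold lower, so the 2-fold call sits at its line, and it was lost under TMM scaling, a mean log2 ratio of -1.22, among other settings.

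Klf6 (plus strand of chromosome 13, 5861482 to 5870394), an early-response zinc-finger factor gene, went the other way. It had 665.5 CPM in colon 1 (621.07 to 712.2), 813.2 CPM in colon 2 (785.2 to 841.9) and 269.1 CPM in spleen (241.2 to 299.4). The log2 ratios of 1.31 (1.12 to 1.49) and 1.60 (1.43 to 1.76) stood at the 90.6 and 92.1 percentiles of all eligible genes. Colon 2 exceeded colon 1 by 0.29 (0.18 to 0.40).

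Klf13 (minus strand of chromosome 7, 63886351 to 63938915), a factor known in T cells for late control of the chemokine gene Ccl5, had 209.06 CPM in colon 1, 214.7 CPM in colon 2 and 233.3 CPM in spleen. All 3 intervals overlapped. The log2 ratios of -0.16 (-0.40 to 0.09) and -0.12 (-0.31 to 0.08) included 0. Its sign was not stable: with totals without ribosomal protein genes the mean log2 ratio was -0.35, and with each cell thinned at random to 1000 UMIs it was 0.12.

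Libraries can differ in how many cells carry a transcript or in how many copies such cells carry. For shares at equal depth, every cell was thinned to 1000 UMIs, and the 9 cells of colon 1, 28 of colon 2 and 4 of spleen below that depth were left aside. Of genes that mark other cells, Cd79a, Lyz2, C1qa, Krt8 and Cd8a had a UMI in 0 to 0.40% of thinned cells. Others were more frequent in colon 1, colon 2 and spleen, with Cd8b1 in 5.08%, 3.78% and 6.04% of thinned cells, Xcr1 in 4.10%, 3.78% and 5.38%, Epcam in 1.64%, 4.01% and 2.77% and Pecam1 in 2.79%, 3.84% and 7.18%. A share at or below these cannot be told from such a background, which applies to Klf3 in all 3 libraries, S1pr1 in colon 1 and Gpr183 in spleen.

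S1pr1 had a UMI in 4.59% of colon 1 cells (95% Clopper-Pearson interval 3.07 to 6.57), in 5.16% of colon 2 cells (4.17 to 6.31) and in 21.5% of spleen cells (18.3 to 25.002). Such cells carried 2.25, 1.87 and 1.81 UMIs on average, so the share of positive cells differed between tissues and the copies per positive cell were close. Klf2 behaved alike, with a UMI in 18.9%, 19.2% and 33.6% of cells and 1.79, 1.87 and 1.97 UMIs per positive cell. Klf3 was detected in 2.30% and 2.47% of colon cells and in 5.71% of spleen cells. S1pr4 shares were 7.05%, 6.48% and 9.95%, and both colon intervals overlapped that of spleen. Without thinning, S1pr1 had a UMI in 5.82%, 7.79% and 27.2% of cells and Klf2 in 26.3%, 27.8% and 44.2%.

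Ccr7 differed from all of these. It was detected in 9.84% of colon 1 cells (7.59 to 12.5), 8.72% of colon 2 cells (7.43 to 10.1) and 10.6% of spleen cells (8.28 to 13.3), shares whose intervals overlapped. Its positive cells carried 2.58 and 3.10 UMIs in the colon libraries and 1.26 in spleen, and the highest cell held 19, 13 and 3 UMIs. The higher colon level of Ccr7 therefore came with more transcripts per positive cell and not with a larger share of positive cells. Without thinning, the shares were 12.4%, 11.2% and 17.02%, lower in both colon libraries than in spleen. Positive cells then carried 3.97, 5.12 and 1.62 UMIs. Thinning can remove cells with few UMIs from the count, so the overlap of the thinned shares does not show that the shares were equal. Within each library, the 5% of cells with the most Ccr7 UMIs held 77.1% and 81.7% of them in colon and 56.5% in spleen.

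Gpr183 and Klf6 had more positive cells in colon. Gpr183 was detected in 11.5%, 12.7% and 5.71% of cells with 1.37, 1.37 and 1.29 UMIs each. Klf6, the most widely detected of the 8 genes in colon, had a UMI in 34.8% of colon 1 cells, 41.3% of colon 2 cells and 16.8% of spleen cells, with 2.25, 2.24 and 1.84 UMIs each. Klf13 was detected in 16.4%, 15.3% and 15.01% of cells with 1.43, 1.46 and 1.40 UMIs each, with little difference in either respect. In all, 34.8% of colon 1 cells, 31.7% of colon 2 cells and 31.8% of spleen cells showed a UMI of none of them at this depth.

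**Figure D3:**
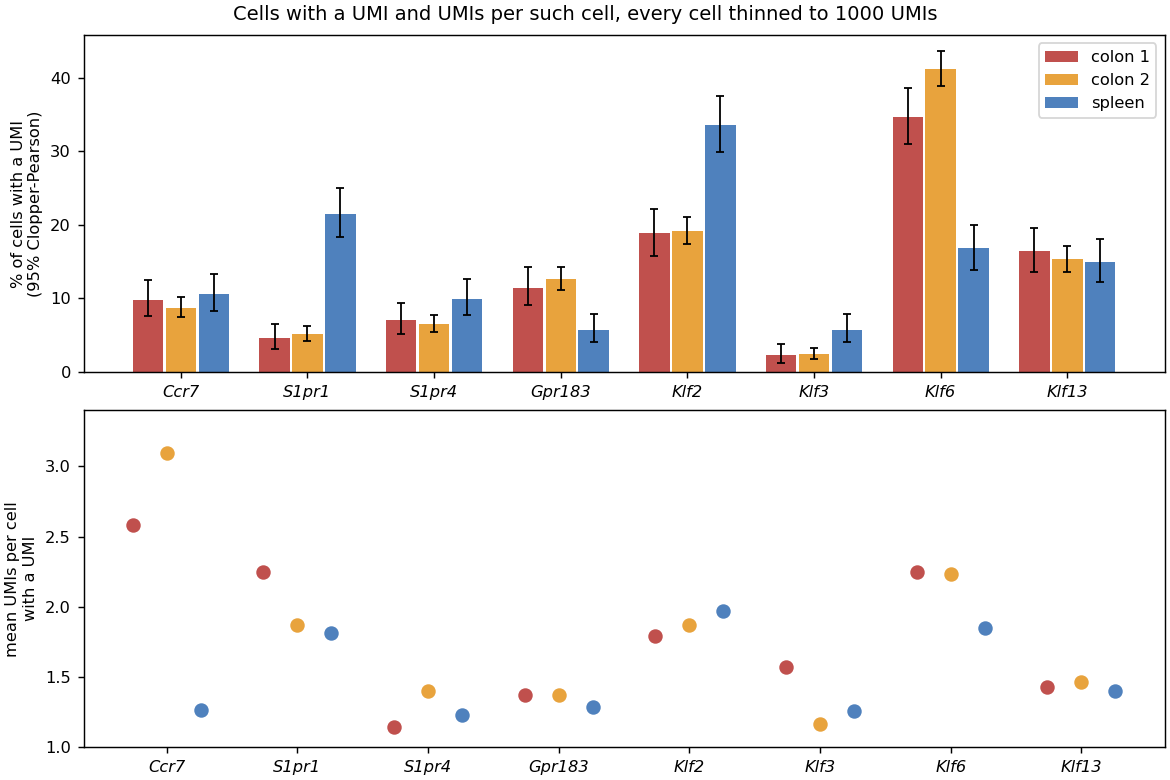
Upper panel, share of cells with a UMI of each gene, with 95% Clopper-Pearson intervals; lower panel, mean UMIs per cell with a UMI, on an axis that starts at 1; every cell thinned to 1000 UMIs. S1pr1 differs in the share of cells (4.59%, 5.16% and 21.5%), and Ccr7 differs in UMIs per positive cell (2.58, 3.10 and 1.26).

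To see which cells carried the genes, cells were clustered on 2000 variable genes with the 8 genes left out, which gave 6 clusters. Clusters 0 and 1 held 76.01% and 23.3% of the spleen cells and few colon cells (3.39% and 1.94% of colon 1, and 1.24% and 1.13% of colon 2). Clusters 2 to 5 were almost wholly colon cells, led by Hey1 and Tbc1d4 beside Ccr7 (cluster 2, 18.3% and 19.8% of colon 1 and colon 2), Emp1 and Rcbtb2 (cluster 3, 42.2% and 39.95%), Pxdc1 and Slco2b1 (cluster 4, 13.7% and 15.4%) and Dgat2 and Cd83 (cluster 5, 20.5% and 22.5%). Bcl6, the transcription factor gene of follicular T cells, was among the top 10 genes of cluster 2. The clusters are kept as numbers, and all values within them are descriptions of these libraries.

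Ccr7 in colon was concentrated in cluster 2, at 903.001 CPM in colon 1 (784.4 to 1034.4) and 941.7 CPM in colon 2 (873.1 to 1014.3). Clusters 3, 4 and 5 had 18.7, 17.5 and 80.1 CPM in colon 1 and 66.2, 68.4 and 116.95 CPM in colon 2, beside 161.2 CPM in cluster 0 and 66.97 CPM (42.5 to 100.5) in cluster 1 of the spleen. Clusters 3 and 4 of colon 2 were thus at the level of spleen cluster 1, and cluster 5 of both colon libraries lay above it by value and below spleen cluster 0. Cluster 2 held 67.97% and 68.8% of all Ccr7 UMIs of the colon libraries, and 45.1% and 33.3% of its cells had one. High Ccr7 was not confined to it. The 21 colon 1 cells and 22 colon 2 cells of cluster 0 held 20.9% and 6.32% of these UMIs. Of those cells, 52.4% and 40.9% had one. Colon cells outside cluster 2 had 95.8 CPM (77.8 to 116.8) in colon 1 and 99.5 CPM (88.8 to 111.1) in colon 2, below the 135.4 CPM (115.8 to 157.3) of the spleen library, with intervals that just overlapped for colon 1. The mean log2 ratio of Ccr7 was then -0.47, so its direction turned when that cluster was left out, a choice made after seeing the data.

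S1pr1 was also highest in cluster 2 among the colon clusters, at 195.4 and 249.95 CPM. It had 46.8 and 56.04 CPM in cluster 3 and 41.95 and 90.1 CPM in cluster 5. In cluster 4 it had 0 UMIs in colon 1, which allows up to 21.5 CPM, and 19.3 CPM in colon 2. Even the cluster 2 levels stayed below the 357.8 and 387.3 CPM of spleen clusters 0 and 1, so in this clustering S1pr1 was lower than in both spleen clusters in each of clusters 2 to 5 of both colon libraries, and its mean log2 ratio outside cluster 2 was -2.70.

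The other genes had other orders. Among clusters 2 to 5, Klf2 was highest in cluster 4, at 455.1 and 453.8 CPM, and lowest in cluster 3, at 226.4 and 215.2 CPM. The spleen clusters had 612.9 and 562.006 CPM. Among clusters with at least 50 colon cells, the one with the most Klf2 was thus not the one with the most S1pr1 in this clustering. It was the same one at resolution 0.4 or when the 8 genes were included, where their own counts help form the clusters. The colon cells of clusters 0 and 1 fell short of that minimum. Pooled, these 75 cells had more of both genes by value than clusters 2 to 5, at 328.3 CPM of S1pr1 and 619.3 CPM of Klf2. Gpr183 was highest in clusters 4 and 5, at 250.9 and 221.2 CPM in colon 1 and 218.7 and 196.5 CPM in colon 2, and lowest in cluster 2, at 91.2 and 122.9 CPM. Klf6 was highest in cluster 3, at 812.1 and 922.7 CPM, and each of clusters 2 to 5 in both colon libraries exceeded the 266.2 and 282.5 CPM of the spleen clusters.

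S1pr4 showed its largest contrast inside the spleen, at 206.7 CPM (161.5 to 260.8) in cluster 1 and 77.3 CPM (60.3 to 97.7) in cluster 0. Cluster 1 was led by Itgb1 and Nrp1, and cluster 0 by Evl and Nsg2. The S1pr4 level of spleen cluster 0 lay within the range of the colon clusters, 40.8 to 108.1 CPM, whereas that of cluster 1 lay above it. Klf13 had 317.5 CPM in cluster 2 and 145.02 CPM in cluster 5 of colon 2, with the same order in colon 1 (243.1 and 183.07 CPM, with overlapping intervals). Klf3 stood at 65.1 CPM (36.4 to 107.4) and 41.9 CPM (28.5 to 59.5) in cluster 2. It stood at 11.7 to 31.8 CPM in the other colon clusters, from 2 to 33 UMIs each, and their intervals overlapped that of cluster 2 in the same library.

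The 75 colon cells that fell in clusters 0 and 1, both libraries together, were set beside the spleen cells of those clusters. S1pr1 had 328.3 CPM (238.6 to 440.7) in these colon cells and 365.9 CPM (333.1 to 401.1) in the spleen cells, and Klf2 had 619.3 CPM (493.3 to 767.7) and 598.9 CPM (556.8 to 643.4), both with overlapping intervals. Klf6 was higher in the colon cells, at 776.01 CPM (634.1 to 940.3) in colon and 270.6 CPM (242.6 to 301.1) in spleen, and so was Ccr7, at 970.02 CPM (810.4 to 1151.8) in colon and 135.3 CPM (115.7 to 157.3) in spleen. As a pool, these colon cells could thus not be told from their spleen neighbours in S1pr1 and Klf2 within counting error. The pool differed from those neighbours in Klf6 and Ccr7. Its Ccr7 came almost wholly from cluster 0, whose colon cells held 20.9% and 6.32% of the Ccr7 UMIs of colon 1 and colon 2. The colon cells of cluster 1 held 0% and 0.20%, so the pooled Ccr7 level does not describe them. Clusters 0 and 1 also made up different proportions of the colon and spleen pools. Gpr183, with 9 UMIs, stood at 67.2 CPM (30.7 to 127.5) in the colon cells and 75.3 CPM (60.8 to 92.1) in the spleen cells.

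**Figure D4:**
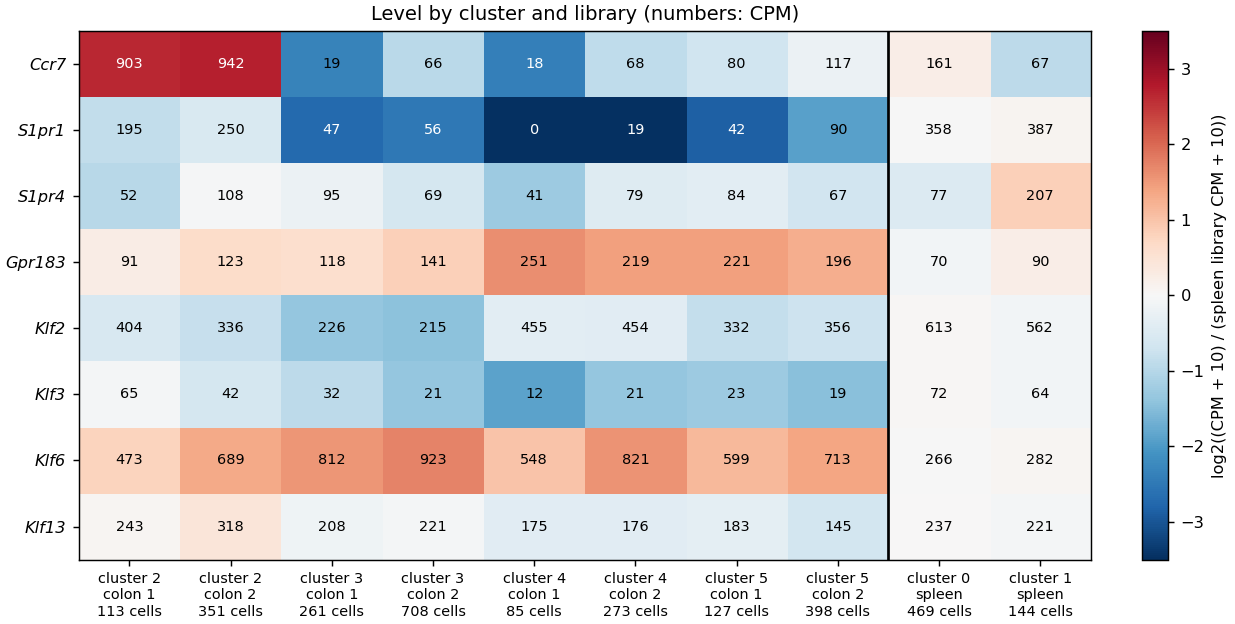
CPM (printed) of the 8 genes by cluster and library, for units of at least 50 cells, with colon left and spleen right; colour is the log2 ratio of CPM + 10 to that of the whole spleen library. Ccr7 is high in cluster 2 (903.001 and 941.7 CPM), S1pr1 is below both spleen clusters in colon clusters 2 to 5, and Klf6 is above them there.

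Across the 8 units that 4 colon clusters and 2 libraries make, Ccr7 and S1pr1 varied together (Pearson r of log2(CPM + 10) 0.86, 8 units that share 2 libraries), and so did Klf3 and S1pr1 (0.82). Gpr183 ran against Klf3 (-0.89) and S1pr1 (-0.77). Klf3 had 2 to 33 UMIs per unit, and S1pr1 had 0 in cluster 4 of colon 1, so values with these genes rest on few counts. The genes most like each in this measure were then sought among the 3482 eligible genes, the 8 left out. With so many genes and 8 units, high values can arise by chance, and whether these exceed that was not tested. They were Rps19, Gimap6 and Bcl2 for Ccr7 (0.98, 0.98 and 0.96) and N4bp2l2, Rcc2 and Cmas for S1pr1 (0.99, 0.98 and 0.97). For Gpr183 they were Gbp3, Birc3 and Dennd4a (0.98, 0.97 and 0.96). The highest values for Klf2, Klf6 and Klf13 were 0.92 with Ptp4a2, 0.96 with Iqgap1 and 0.94 with Ypel5. S1pr4 came closest to Ric8 (0.96) and Klf3 to 4930402H24Rik (0.97).

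Within single cells, S1pr1 was more frequent among Ccr7-positive than Ccr7-negative cells of each library. Of thinned cells with a Ccr7 UMI, 9 of 60 in colon 1 (95% interval of the share 7.10% to 26.6%), 17.1% in colon 2 (11.5 to 24.05) and 38.5% in spleen (26.7 to 51.4) also had an S1pr1 UMI. Among cells without Ccr7, the shares were 3.45%, 4.02% and 19.5%, with no overlap of intervals in any library. Klf2 was likewise found in 21 of 60 Ccr7-positive cells of colon 1, in 28.9% of those of colon 2 and in 50.8% of those of spleen, and in 17.1%, 18.3% and 31.6% of the others, again with intervals apart. S1pr1 was found in 7.83%, 8.36% and 29.6% of Klf2-positive cells of colon 1, colon 2 and spleen, and in 3.84%, 4.40% and 17.4% of Klf2-negative cells, with intervals apart in colon 2 and spleen and overlapping in colon 1.

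Gpr183 did not follow Ccr7: it was present in 6.67% and 10.5% of Ccr7-positive colon cells and in 66 of 550 and 12.9% of the others, with overlapping intervals. Although Klf2 and Klf6 differed between the tissues in opposite directions, the share of cells with Klf6 was higher among Klf2-positive cells of each library. Klf6 was found in 42.6%, 55.8% and 22.8% of Klf2-positive cells of colon 1, colon 2 and spleen, and in 32.9%, 37.8% and 13.8% of Klf2-negative cells. The intervals were apart in colon 2 and overlapped in colon 1 and, narrowly, in spleen. Cells were thinned to equal depth for these shares, and cells captured as doublets were not called.

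**Figure D5:**
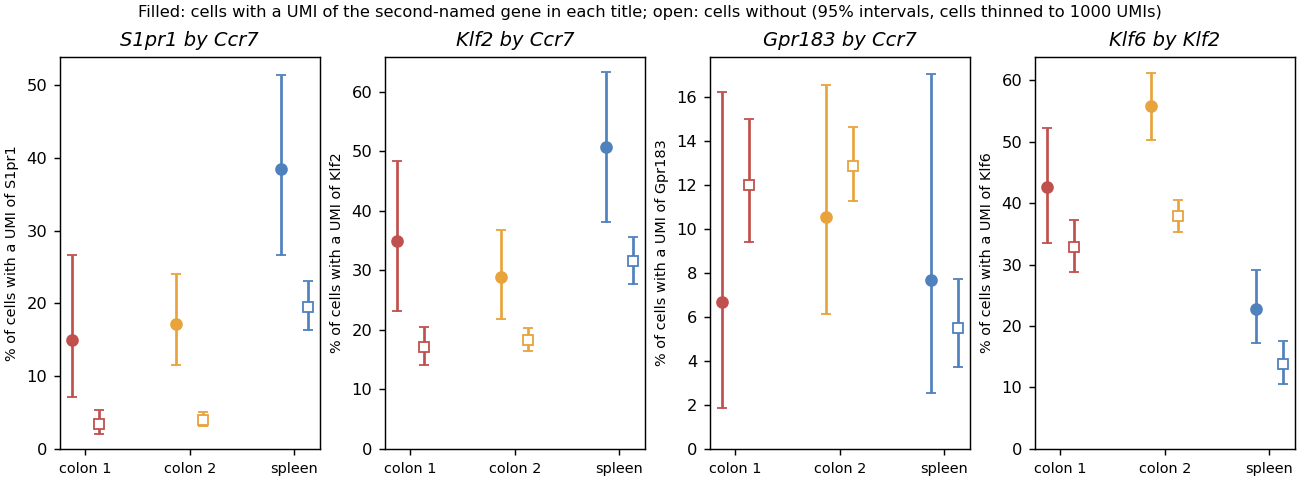
Share of cells with a UMI of one gene among cells with (filled) and without (open) a UMI of another, by library, with 95% Clopper-Pearson intervals, every cell thinned to 1000 UMIs. S1pr1 is more frequent in Ccr7-positive cells in all 3 libraries (9 of 60 cells, 17.1% and 38.5%) than in Ccr7-negative cells (3.45%, 4.02% and 19.5%).

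Other genes of these pathways give the setting. List genes are counted here when they had at least 30 UMIs over the 3 libraries, a rule that 9580 genes met without the 50 CPM minimum, and of those 10.4% were at least 2-fold higher and 5.4% at least 2-fold lower in both colon libraries, with medians of 0 in colon 1 and 0.01 in colon 2. In the list of S1P receptors and S1P handling, 7 genes were measured, of which 0 passed the 2-fold rule upward and 2 downward, S1pr1 and Sgpp1, an S1P phosphatase gene (log2 ratios -1.69 and -1.62), and the list median was -0.55 in each. Mfsd2b, an S1P transporter gene, had -0.44 in colon 1 and -1.62 in colon 2, a large gap between the colon libraries. Ch25h and Cyp7b1, the enzyme genes of the GPR183 ligand, had 0 UMIs in all 3 libraries, which leaves Gpr183 as the measured gene of its list. Of 6 measured genes of lymph node entry and follicle homing, 1 passed the 2-fold rule upward, Cxcr4, a CXCL12 receptor gene (1.196 and 1.34). In the same list 1 gene, not reported here, passed it downward and by more.

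The tissue retention list had 6 measured genes, and all of them passed the 2-fold rule upward. Cd69, whose product binds S1PR1 and removes it from the surface, had 489.9, 422.8 and 196.7 CPM in colon 1, colon 2 and spleen, and Itgae, the integrin chain of CD103, had log2 ratios of 1.84 and 1.51. Of 12 genes of receptor desensitisation and chemotactic signalling, 1 was higher, Gna13 (1.32 and 1.62), a G protein subunit gene known for confining germinal centre B cells, and 0 were lower. Rgs1, a regulator of G protein signalling, had 0.07 and 0.05. Of 9 genes that feed into KLF2, 1 was past 2-fold upward by value (Mef2d) and 2 downward (Mapk7 and Pik3ip1), all of them under 50 CPM in each tissue. Mef2d rested on 14, 39 and 6 UMIs in colon 1, colon 2 and spleen, and the intervals of its log2 ratios, -0.24 to 2.89 and -0.19 to 2.59, included 0. Pik3ip1 had 5, 20 and 58 UMIs, with log2 ratios of -3.53 (-5.21 to -2.23) and -3.18 (-3.99 to -2.42), and Foxo1, which drives Klf2, was at 0.32 and 0.65, against the direction of Klf2.

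Across the KLF family, 10 genes were measured: 4 passed the rule upward (Klf4, Klf6, Klf7 and Klf10) and 1 downward (Klf3), with list medians of 0.44 and 0.37. Klf4, a factor that restrains T cell division, had 124.5 and 143.7 CPM in the colon libraries and 9.55 CPM in spleen, from 12 UMIs, or log2 ratios of 3.704 and 3.91. Klf7 had 1.56 and 2.23 and Klf10, a TGF-beta-induced factor gene, 1.79 and 1.89, and neither met the 50 CPM minimum. Klf3 was the one measured member past the 2-fold line on the lower side, and Klf2 was short of that line.

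Genes that respond to tissue dissociation differed between the tissues too. That list, without KLF genes, had 21 measured genes, of which 10 passed the rule upward and 1, Zfp36, downward, and their summed level was 9142, 10421 and 4950 CPM in colon 1, colon 2 and spleen. Klf6, Klf4 and Klf2 are early-response genes too. Without the cells that held a UMI of Fosb, Hspa1a, Hspa1b, Atf3 or Dnajb1, Klf6 had a mean log2 ratio of 1.08 and missed the 2-fold rule by its value of 0.996 in colon 1. Gpr183 missed it with 0.76 in colon 1, whereas Klf2 stood at -1.06 and Ccr7 at 1.32, past that rule. The part of dissociation in these ratios was not tested further. Among 13 measured resting T cell genes outside the 8, 10 passed the rule downward and 1, Il7r, upward (1.09 and 1.10), with medians of -2.38 and -3.18, below the -0.90 and -0.89 of Klf2.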

How the data were processed

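The submitters' labels describe inDrops single-cell libraries sequenced on a NextSeq500; mm10, TopHat2 and SAMtools are named in the submitters' processing notes without roles or versions, and of the counting step and its use of strand the sources used here say nothing. The authors deposited 1 table of raw UMI counts per gene and cell (23725 genes, 7983 without a UMI; 3008 cells), and per the labels its columns name tissue and library. Colon 1 (619 cells), colon 2 (1772) and spleen (617) were kept apart. Titles give colon 2 the replicate number 2, but its sample type gives 1b. No cell was filtered and no doublet caller was run.

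UMIs were summed per library, scaled to CPM, and given exact Poisson intervals at 95%; ratios have exact conditional binomial intervals. Shares used the 610, 1744 and 613 cells of colon 1, colon 2 and spleen that had 1000 UMIs or more, thinned to that number. Genes needed 50 CPM in spleen or in both colon libraries. List genes counted as measured had at least 30 UMIs over the 3 libraries. Clusters came from scanpy 1.11.5 (10000 UMIs per cell, 2000 variable genes, 20 principal components, 15 neighbours, Leiden resolution 0.8) without the 8 genes. Positions are from GENCODE vM21 (mm10) and promoters from RefSeq. The fold rule and the ratio intervals were tested on simulated library sums with Poisson counts and no spread between cells. Thinning, shares, pairs and clusters were not tested in this way. The genes, the lists and the comparisons were chosen with earlier results of these data known, including the level of Ccr7 by cluster. Named genes were the 8, Foxo1, Cd69, Ubac2 and Rgs1, up to 4 per list by mean log2 ratio in size, the 3 most like each gene, and the 5 top genes per cluster; Il7r and Zfp36 were named after their values were seen, and Foxp3 and 9 genes of other cells serve as checks. A gene that this rule also names is not reported here. Alternatives were TMM (edgeR 4.0.16) and median-of-ratios scaling, other totals, per-cell means, thinning, other minimums, subsets of cells (leaving out 264, 874 and 63 cells for dissociation genes), each colon library alone and other clusterings.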

Additional observations from a re-analysis of the deposited data

How the results depend on the processing

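Of 96 recomputed ratios of the 8 genes, 83 stayed within the counting intervals first given, 13 left them, and 0 turned the sign of a gene past the 2-fold rule. Totals without ribosomal protein genes shift the median of all eligible genes to -0.24 and gave mean log2 ratios of -2.29 for S1pr1, -1.11 for Klf2, 1.24 for Klf6 and -0.35 for Klf13, with 1 gene of the 8 at least 2-fold higher and 3 lower, 4 at least 1.5-fold lower (S1pr4 joining, at -0.74), and 7.99% (2-fold) and 20.99% (1.5-fold) of eligible genes lower. Thinning to 1000 UMIs gave -1.97 for S1pr1 and 0.12 for Klf13. Under TMM, median-of-ratios scaling, per-cell means, thinning, or without the 5% of cells with the most UMIs, 1 gene, S1pr1, was at least 2-fold lower. Without cells holding a UMI of 5 dissociation genes the values were 1.32 for Ccr7, -1.75 for S1pr1, -1.06 for Klf2 and 1.08 for Klf6, with 1 gene at least 2-fold higher and 3 lower. Chosen after seeing the data, colon cells outside cluster 2 gave -0.47 for Ccr7 and -2.70 for S1pr1 with 2 genes at least 1.5-fold higher, and leaving out cells with a shared barcode left 1 gene at least 2-fold higher and 1 lower, with Gpr183 at 1.03.

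With no minimum, 7.11% and 5.21% of genes were at least 2-fold higher and lower and 11.7% and 11.5% at 1.5-fold. With a minimum of 20 CPM these shares were 9.64%, 5.58%, 16.5% and 13.8%. With 1 colon library at a time, ratios ran from -2.28 to -1.86 for S1pr1, -1.50 to -1.01 for Klf3 and 1.31 to 1.60 for Klf6, and 6.67% to 7.36% of eligible genes were 2-fold lower and 16.9% to 18.6% at 1.5-fold.

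The colon cluster with the highest level had 1451, 1357 and 1345 CPM of Ccr7 (932.5 here) when the 8 genes were included or at resolution 0.4 or 1.2, and 290.9, 395.04 and 291.2 of S1pr1 (236.99 here). Klf6 reached 1638 with the genes included and 1516 at 1.2, and Klf2 725.6 at 0.4 and 605.5 at 1.2. Each value is the highest over the clusters with at least 50 colon cells, and their number can differ between clusterings. With the 8 genes included, cells are grouped partly by these same genes, so those values are no separate check. At 0.4 the S1pr1 and Klf2 values are from the 70 colon cells of cluster 0 and lie above the whole spleen library (364.7 and 596.4 CPM). In the clustering used here, the colon cells of cluster 0 (21 and 22 by library) and cluster 1 (12 and 20) fell short of the minimum of 50. They did not enter this comparison, and pooled they had 328.3 CPM of S1pr1 and 619.3 CPM of Klf2. The cause was not tested. No paired analysis was possible because there is 1 spleen library and the numbers in the labels name cells. Depth limits Klf3, with 43 UMIs in colon 1, the most.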
